A study of Rattus norvegicus with 2 samples.

Results

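The nuclear-encoded genes of the mitochondrial respiratory chain and ATP synthase were followed across the CD45+ cells of the infarcted rat heart. Members were the gene symbols of complex I (Nduf), complex II (Sdh), complex III (Uqcr), complex IV (Cox4 to Cox8) and complex V (Atp5) with at least 50 unique molecular identifiers (UMIs, counts of single captured transcripts) over all cells. Of 26976 symbols, 98 matched and 90 were members: 35 of complex I, 4 of complex II, 8 of complex III, 17 of complex IV, 15 of complex V and 11 auxiliary genes. Ndufa4 and Ndufa4l2 were counted with complex IV, and the auxiliary genes were the assembly factors and the ATP synthase inhibitor Atp5if1. Of the other matching symbols, Ndufa1, Cox7a1, Cox7b2, Cox8c, Cox6c-ps1 and Sdhaf1 were listed at 0, Sdhaf3 had 36 UMIs and Atp5pb 14. Just inside the minimum stood Ndufs6 with 51 UMIs and Cox8b with 179.

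The respiratory chain passes electrons from NADH (complex I) and succinate (complex II) through complex III to complex IV, which reduces oxygen, and the proton gradient this builds drives ATP synthase (complex V). A few core subunits of complexes I, III, IV and V are encoded in mitochondrial DNA, and all the others, with the whole of complex II, in the nucleus. Neutrophils are known for few mitochondria and for living largely on glycolysis, whereas resting lymphocytes and reparative macrophages rely more on oxidative phosphorylation.

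The study sorted CD45+ (leukocyte) cells from left ventricles of wild-type (wt) rats 7 days after surgery. One group had a myocardial infarction (MI). The other, labelled MI+PUR-hAESC, had an infarction and a polyurethane scaffold patch carrying human amniotic epithelial stem cells on the heart surface. Each group is 1 sample, and the labels do not give the number of rats in it or their age. The count matrix holds both samples, told apart only by a barcode suffix that neither the labels nor the files tie to a group. They are called library 1 and library 2 here, a difference between libraries says nothing here on the patch, and no p-value can be given.

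Library 1 held 72506643 UMIs in 14283 barcodes and library 2 82802439 UMIs in 15666 barcodes, with 71 barcode sequences in both. After filtering and doublet removal 13562 and 14491 cells were kept. Cells were gated on marker genes that include no member. A total of 8 gates had at least 50 cells in each library: neutrophils (3940 and 1652 cells), macrophages (1694 and 1540), monocytes (332 and 80), T cells (2163 and 3610), B cells (690 and 1427), NK cells (1312 and 2008), dendritic cells (83 and 70) and endothelial cells (147 and 53). A thymocyte gate held 6 cells in library 1 and 419 in library 2 and was read in library 2 only. Of those 419 cells, 262 were gated by a lead of only 1 marker. Their median depth was 1749 UMIs, against 4867.5 in T cells of library 2. The defining markers were present in each gate and each list was highest in its own gate, except that the T cell list reached 5049 CPM (UMIs of a gene or list for every 1000000 UMIs of the cells) in the thymocyte gate. The monocyte gate rested on 4 detected markers. In all 3134 and 3587 cells passed no gate. The endothelial gate lies outside the labelled CD45+ population.

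Promoters of 78 of the 90 members were found in the RefSeq table for the GRCr8 rat assembly, each running from 250 bases before to 50 bases after the annotated start. They were searched on both strands for the letters of 3 motifs of factors known to act on respiratory genes. The NRF1 core letters GCATGCG occurred in 12 of the 78 (15.4%) and in 3.33% of all 33469 promoters of that length. The ETS letters CCGGAAG, the core bound by GABPA (NRF-2), occurred in 21 (26.9%) against 8.75% of all. The YY1 core letters AAGATGG occurred in 20 (25.6%) against 7.01% of all. At least 1 of the 3 was present in 39 of 78 (50%), against 17.5% of all promoters. The NRF1 letters can overlap their own reverse complement. A match is a description of letters and not a binding site.

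Promoters are shown for 4 members that the results below turn on, with motif letters in capitals. Atp5mc2 (chr7:135678169-135678468 on the minus strand) was far lower in neutrophils than in macrophages and holds the NRF1 letters on both strands, overlapping each other. Cox8a (chr1:213833574-213833873 on the minus strand) was reduced less there and, with 631 and 522 CPM, was the most abundant member in neutrophils; it holds the ETS letters at 2 positions and the YY1 letters at 1. Cox7c (chr2:18579121-18579420 on the minus strand), the member furthest down in neutrophils, holds the YY1 letters at 1 position. Cox7a2l2 (chr14:55513973-55514272 on the plus strand), the member that set the thymocyte gate apart, holds none of these letters in the window.
Atp5mc2: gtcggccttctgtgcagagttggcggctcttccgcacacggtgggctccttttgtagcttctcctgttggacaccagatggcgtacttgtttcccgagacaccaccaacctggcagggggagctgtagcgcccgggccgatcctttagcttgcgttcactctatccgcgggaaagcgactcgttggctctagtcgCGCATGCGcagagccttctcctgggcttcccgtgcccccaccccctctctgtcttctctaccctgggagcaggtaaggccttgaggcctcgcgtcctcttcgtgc
Cox8a: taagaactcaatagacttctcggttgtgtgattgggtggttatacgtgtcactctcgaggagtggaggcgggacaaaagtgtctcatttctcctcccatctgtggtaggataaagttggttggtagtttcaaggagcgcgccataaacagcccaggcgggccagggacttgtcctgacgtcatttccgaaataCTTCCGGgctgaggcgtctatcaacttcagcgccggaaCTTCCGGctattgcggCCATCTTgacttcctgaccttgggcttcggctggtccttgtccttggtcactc
Cox7c: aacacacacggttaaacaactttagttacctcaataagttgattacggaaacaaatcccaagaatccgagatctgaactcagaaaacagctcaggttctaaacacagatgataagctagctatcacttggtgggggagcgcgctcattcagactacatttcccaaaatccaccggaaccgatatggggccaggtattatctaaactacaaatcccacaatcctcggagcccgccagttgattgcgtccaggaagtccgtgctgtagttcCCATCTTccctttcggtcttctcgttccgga
Cox7a2l2: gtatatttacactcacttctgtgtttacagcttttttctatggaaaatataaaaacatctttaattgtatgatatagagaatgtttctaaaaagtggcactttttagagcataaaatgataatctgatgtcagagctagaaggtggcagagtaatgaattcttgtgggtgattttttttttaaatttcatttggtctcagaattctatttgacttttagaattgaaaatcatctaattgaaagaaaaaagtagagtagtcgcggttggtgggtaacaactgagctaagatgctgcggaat

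Levels are UMIs of a gene in CPM of the gated cells' UMIs in each library. Each UMI is a tag of the transcript's 3′ end, so levels of different genes need no scaling by length. Intervals are exact 95% Poisson intervals and cover counting error only, not variation between animals. A gate's CPM is a share of its RNA, so fewer members per cell and more of other RNA cannot be told apart.

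By CPM, summed over all 90 members, neutrophils stood lowest and B cells next. The sum was 7446 and 7428 CPM in neutrophils of library 1 and library 2. It was 14281 and 14137 CPM in B cells, and 17023 and 17837 CPM in NK cells. Neutrophils and B cells were the lowest gates in both libraries, with no overlap with any other gate. Monocytes had 19487 and 19282 CPM, T cells 20102 and 20295 CPM, and macrophages 20692 and 20604 CPM. Dendritic cells had 21332 and 21418 CPM, endothelial cells 22170 and 20606 CPM, and the thymocyte gate of library 2 23856 CPM. Dendritic and endothelial cells changed places between libraries, and the intervals of macrophages and endothelial cells overlapped in library 2.

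The same share of UMIs was also read cell by cell at a fixed depth. This adds the spread over cells and is not independent of the CPM, whose scaling it shares. When each cell was thinned to 1500 UMIs, the median neutrophil kept 11 member UMIs in library 1 and 10 in library 2, with quartiles of 8 and 14 in both. The median macrophage kept 29 in both libraries, with quartiles of 23 and 36 in library 1 and 23 and 35 in library 2. The quartile ranges of neutrophils and macrophages did not overlap. The median was 29 and 28 in T cells, 24 and 26 in NK cells, and 21 in B cells of both libraries. The shallower cells left out numbered 275 and 126 neutrophils and 94 and 64 macrophages.

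**Figure D1:**
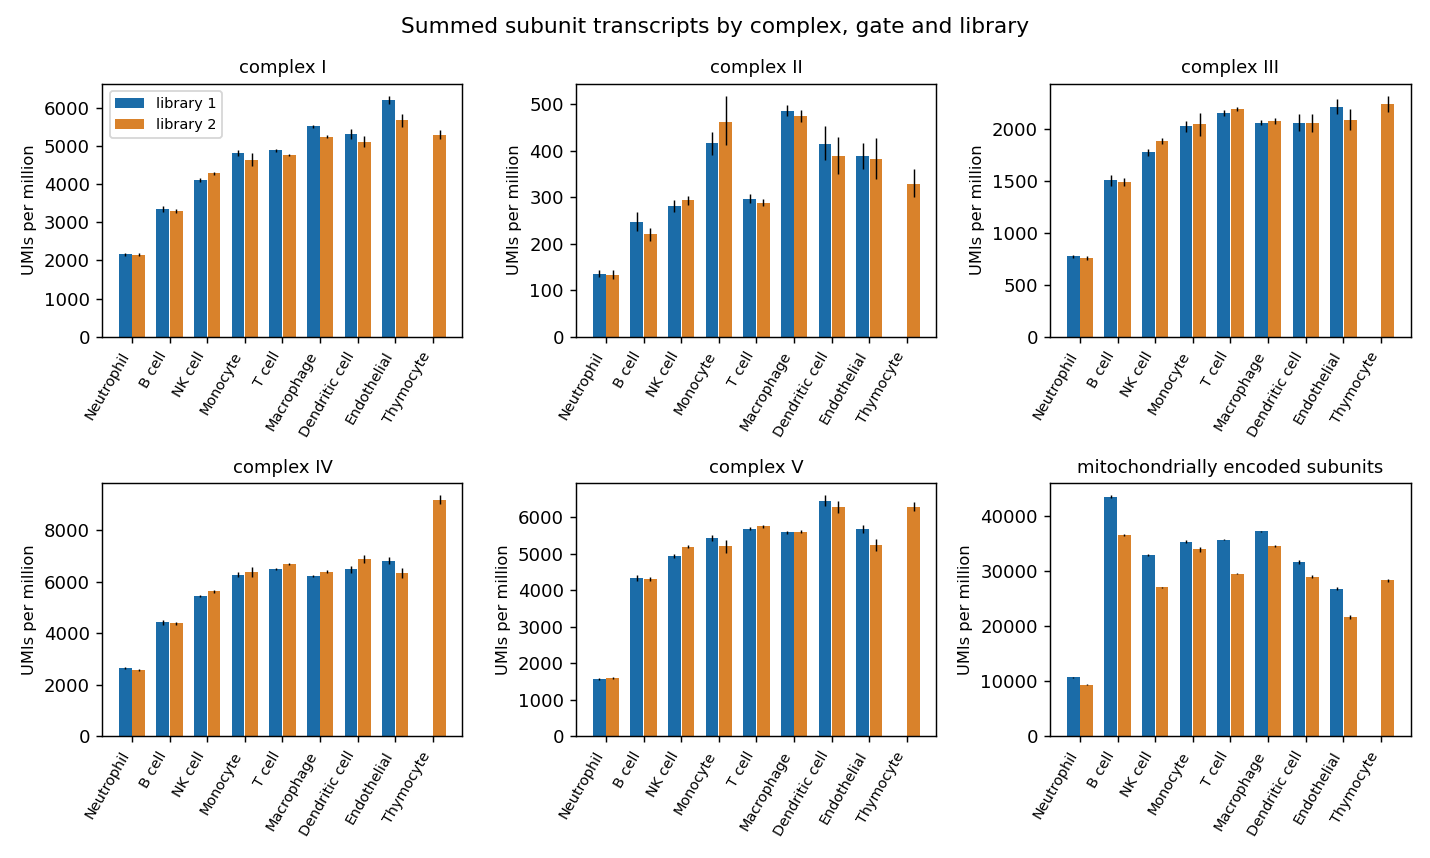
Summed CPM (vertical axes) of the members of each complex and of the mitochondrially encoded subunits in each gate (horizontal axes), with library 1 in blue, library 2 in orange and bars for exact 95% Poisson intervals. Neutrophils are lowest in every panel, B cells are next lowest for complexes I to V and highest for the mitochondrially encoded subunits, and the thymocyte gate was read in library 2 only.

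Complex I, the NADH dehydrogenase, contributed 2157 and 2153 CPM in neutrophils, 3355 and 3296 CPM in B cells, 5521 and 5246 CPM in macrophages and 6204 and 5668 CPM in endothelial cells. Its most abundant subunits were Ndufa13, Ndufb11, Ndufb8 and Ndufb9, all supernumerary subunits of the membrane and peripheral arms. Ndufa13 had 458 and 453 CPM in macrophages, 341 and 337 CPM in T cells, and 170 and 201 CPM in neutrophils.

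Complex II, succinate dehydrogenase, was higher in macrophages, monocytes and dendritic cells than in lymphocytes. Its 4 genes summed to 486 and 474 CPM in macrophages, 416 and 463 CPM in monocytes and 415 and 388 CPM in dendritic cells. The sum was 297 and 288 CPM in T cells, 280 and 293 CPM in NK cells, and 247 and 220 CPM in B cells. The lymphocyte values were all below those of these myeloid gates, and neutrophils had 136 and 133 CPM. Most of this lay in Sdhb, the iron-sulfur subunit, with 240 and 223 CPM in macrophages, 108 and 101 CPM in T cells and 70.7 and 64.2 CPM in B cells. Sdha, the flavoprotein that oxidises succinate, was nearly level, at 66.6 and 61.3 CPM in macrophages, 57.4 and 57.8 CPM in T cells and 64.5 and 61.0 CPM in B cells.

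Complex III summed to 2058 and 2074 CPM in macrophages, 2151 and 2193 CPM in T cells, 1504 and 1487 CPM in B cells and 772 and 757 CPM in neutrophils. Uqcrh, the hinge protein, was its most abundant gene and was higher in T cells (714 and 761 CPM) than in macrophages (431 and 433 CPM). The next 3, the small subunits Uqcr11, Uqcr10 and Uqcrq, all went the other way in both libraries. Uqcr11 had 282 and 261 CPM in T cells and 399 and 381 CPM in macrophages. Uqcrfs1, the Rieske iron-sulfur protein, lay between 116 and 255 CPM over the 8 gates and both libraries, lowest in neutrophils (128 and 116 CPM) and highest in monocytes (255 CPM in both libraries).

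Complex IV, cytochrome c oxidase, was the largest sum in every gate and library, at 6232 and 6400 CPM in macrophages, 6498 and 6693 CPM in T cells, 4426 and 4399 CPM in B cells and 2643 and 2591 CPM in neutrophils. Cox4i1, the largest nuclear subunit, was the most abundant member in every gate other than neutrophils, where Cox8a was higher, and thymocytes, where Cox7a2l2 was. It had 1311 and 1295 CPM in macrophages, 1326 and 1287 CPM in T cells, 923 and 890 CPM in B cells and 300 and 328 CPM in neutrophils. Cox6c had its highest values in dendritic cells (915 and 912 CPM), against 602 and 655 CPM in macrophages. Cox5b, the zinc-binding subunit, lay between 289 and 737 CPM over the 8 gates and both libraries.

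Complex V summed to 5590 and 5614 CPM in macrophages, 5694 and 5756 CPM in T cells, 6457 and 6284 CPM in dendritic cells and 1570 and 1602 CPM in neutrophils. Atp5f1e, a small subunit of the catalytic F1 head, was its most abundant gene, with 750 and 813 CPM in macrophages and 223 and 228 CPM in neutrophils. The c ring, the rotor turned by protons, is built from 1 protein that the 3 genes Atp5mc1, Atp5mc2 and Atp5mc3 encode with different import sequences. Atp5mc2 was the most abundant of these in every gate and library, with 744 and 722 CPM in macrophages, 742 and 693 CPM in B cells, and 72.8 and 85.1 CPM in neutrophils. Atp5mc1 stood out in dendritic cells, at 697 and 626 CPM, against 401 and 373 CPM in macrophages, a ratio of 1.74 and 1.68.

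Of the 7 pairs of gates compared gene by gene, neutrophils against macrophages had the most members past 2-fold. Of the 90 members, 54 were at least 2-fold lower in neutrophils in both libraries, where 19.3% of the 13249 genes tested were, and 0 were at least 2-fold higher, where 4.56% of all genes were. Log2 ratios of single genes are of (CPM + 10) over (CPM + 10), and those of summed genes are of CPM with nothing added. The median member was at -1.37 in library 1 and -1.39 in library 2, beside medians of -0.25 and -0.32 over all genes tested. All genes tested include many at low levels, which the added 10 CPM draws towards 0. Among genes at 20 CPM (5657 in library 1 and 5743 in library 2) the medians were lower, at -0.64 and -0.79. The 78 members at that level had medians of -1.52 and -1.48. The shares of 19.3% and 4.56% were not counted at that level. By CPM, neutrophils were the lowest of the 8 gates for 71 of the 84 members with at least 20 CPM in a gate, and B cells for 9. How often neutrophils were the lowest gate over all genes was not counted, so the 71 has no background beside it. The median spread of a member between its highest and lowest gate was 1.81 on the log2 scale, and 0.86 with neutrophils left out.

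This contrast depends on the scaling. The 10 most abundant genes held 32.3% and 33.2% of neutrophil UMIs and 15.7% and 13.7% of macrophage UMIs, and S100a8 and S100a9 alone held 13.04% and 17.5% in neutrophils. Scaling by the trimmed mean of M-values (TMM), which centres on the bulk of genes, shifts neutrophils up against macrophages by 1.18 and 1.28 on the log2 scale. The ratio of the summed members was -1.47 in both libraries by CPM, a fold of 0.360 and 0.361, and -0.30 and -0.19 after TMM scaling, a fold of 0.813 and 0.877. After TMM scaling 19 members were at least 2-fold lower in both libraries, where 9.91% of all genes were, and 3 higher, where 13.5% were. The 3 higher were Ndufa7, Ndufa8 and Ndufaf7. The TMM factors, by which CPM are divided, were 0.450 and 0.442 in neutrophils. They were 1.19 and 1.13 in B cells and 1.17 and 1.14 in NK cells. After that division the summed members of neutrophils exceed those of B cells and NK cells in both libraries. The lowest place of neutrophils therefore holds for shares of UMIs and not after TMM scaling.

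Some members stood far below the others under both scalings. Cox7c, a small nuclear subunit of complex IV, had 22.7 and 34.4 CPM in neutrophils and 563 and 627 CPM in macrophages. The log2 ratio was -4.13 and -3.84 by CPM, the lowest of the members in both libraries. In the other 7 gates Cox7c lay between 466 and 769 CPM, so its low level was found in neutrophils and in no other gate. Cox7b of the same complex had 22.6 and 29.5 CPM in neutrophils against 215 and 251 CPM in macrophages. Cox8a, the smallest subunit, was near the other end, with 631 and 522 CPM in neutrophils against 921 and 918 CPM in macrophages, at -0.54 and -0.80 by CPM and at 0.63 and 0.46 after TMM scaling. Neutrophil Cox8a exceeded the B cell level of 465 and 422 CPM in both libraries.

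The parts of ATP synthase differed in the same contrast. The 3 c ring genes summed to 151 and 168 CPM in neutrophils and 1361 and 1304 CPM in macrophages, a log2 ratio of -3.17 and -2.96 by CPM and -1.99 and -1.68 after TMM scaling. The 5 genes of the F1 head were at -2.19 in both libraries by CPM and at -1.01 and -0.91 after TMM scaling. The peripheral stalk genes Atp5po, Atp5pd and Atp5pf were at -1.52 and -1.45 by CPM. The small membrane subunits Atp5md, Atp5me, Atp5mf and Atp5mg were at -0.79 and -0.91 by CPM and at 0.38 in both libraries after TMM scaling. Atp5if1, the inhibitor that stops the enzyme from running backwards, had 92.7 and 107 CPM in neutrophils and 593 and 574 CPM in macrophages. The sum over complex V was at -1.83 and -1.81, and complex II at -1.84 and -1.83, both lower than complex IV at -1.24 and -1.30 by CPM.

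Complex I members ranged from far below to above the macrophage level in neutrophils. Ndufa12 had 6.42 and 7.13 CPM against 128 and 125 CPM in macrophages, and Ndufab1, the mitochondrial acyl carrier protein, had 10.1 and 9.33 CPM against 120 and 108 CPM. Ndufa8 had 239 and 254 CPM in neutrophils against 200 and 207 CPM in macrophages, and Ndufa7 191 and 202 CPM against 147 and 146 CPM. Their log2 ratios were 0.25 and 0.28 for Ndufa8 and 0.36 and 0.45 for Ndufa7. Of 35 complex I members 25 were at least 2-fold lower in both libraries and 2 were higher in both without reaching 2-fold. The counts of members at least 2-fold lower were 3 of 4 for complex II, 6 of 8 for complex III, 6 of 17 for complex IV, 11 of 15 for complex V and 3 of 11 for the auxiliary genes, beside 19.3% of all genes. The share of the auxiliary genes, 27.3%, was near that of all genes. These counts are by CPM. After TMM scaling the sums were at -0.18 and -0.0023 for complex I, -0.24 and -0.17 for complex III and -0.06 and -0.02 for complex IV. The complex II sum was then at -0.67 and -0.55 and the complex V sum at -0.66 and -0.53. Ndufaf7, an assembly factor of complex I, had 33.2 and 33.5 CPM in neutrophils and 23.7 and 21.8 CPM in macrophages.

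**Figure D2:**
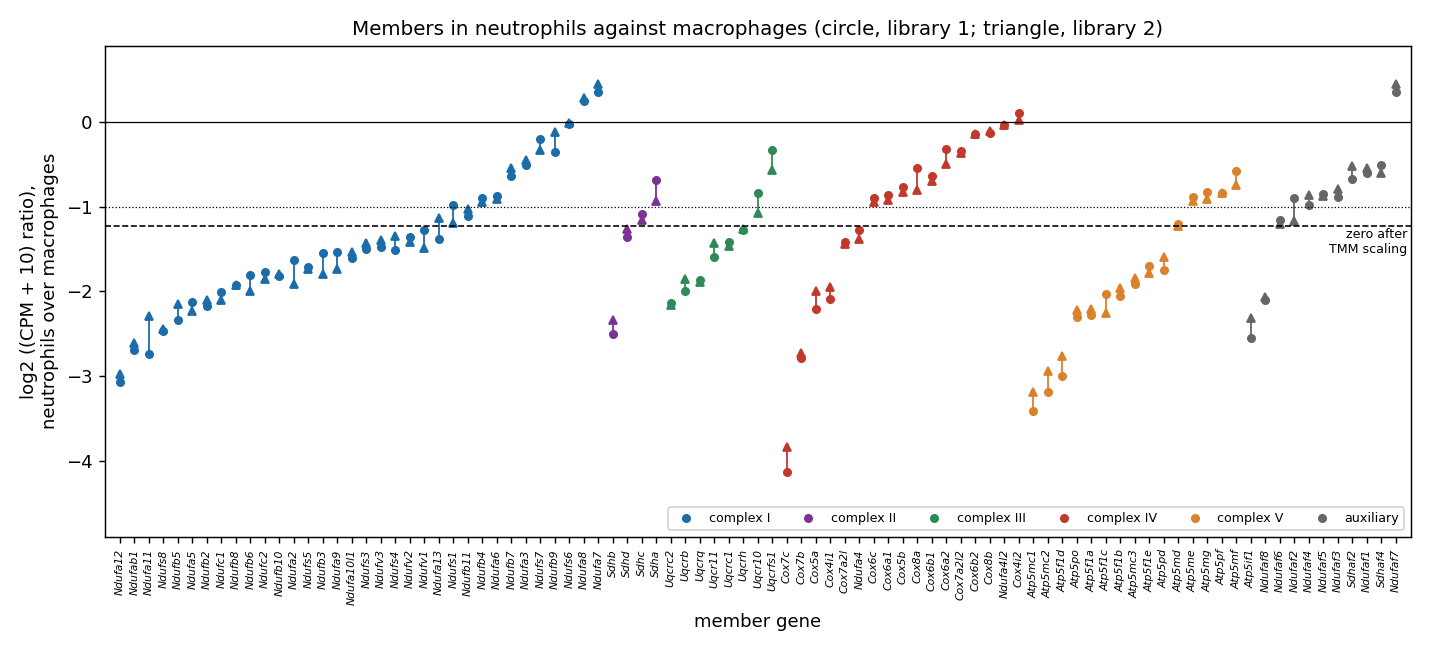
Log2 ratio of (CPM + 10) in neutrophils over macrophages (vertical axis) for the members shown (horizontal axis), sorted within complexes, with circles for library 1 and triangles for library 2. The dotted line marks 2-fold lower and the dashed line the level that TMM scaling sets to 0; Cox7c lies lowest, at -4.13 and -3.84, and Ndufa7, Ndufa8 and Ndufaf7 lie above 0 in both libraries, as does Cox4i2, which had 8 or fewer UMIs in either gate of each library.

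Other mitochondrial genes were counted in the same contrast from lists of named genes. Of the 13 mitochondrially encoded subunits 12 were at least 2-fold lower in neutrophils in both libraries, with medians of -2.19 and -2.31. The citric acid cycle had 8 of 14 lower, the carriers (cytochrome c, ADP/ATP and phosphate carriers and porins) 4 of 8, other assembly factors 8 of 33, and regulators of biogenesis and mitochondrial transcription 2 of 11, beside 19.3% of all genes. The last 2 lists, at 24.2% and 18.2%, were near that share. In these lists 0 genes were at least 2-fold higher, where 4.56% of all genes were. These counts are by CPM, and TMM scaling shifts neutrophils up against macrophages by 1.18 and 1.28 on the log2 scale. The medians by CPM, -1.23 and -1.12 for the citric acid cycle and -0.94 and -1.02 for the carriers, were near the size of that shift.

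Among lymphocytes, B cells had less of each complex than T cells. The summed members were lower by 0.49 and 0.52 on the log2 scale, a fold of 0.710 and 0.697, and by 0.58 and 0.52 after TMM scaling. The median member was at -0.42 and -0.47, beside a median of 0 over all genes in both libraries. Only Cox7b was at least 2-fold lower in both libraries, where 3.51% of all genes were, and 0 members were higher, where 3.58% were. Cox7b was measured at 174 and 175 CPM in B cells and 375 and 415 CPM in T cells. The mitochondrially encoded subunits went the other way, at 43391 and 36574 CPM in B cells and 35618 and 29459 CPM in T cells. The ratio of mitochondrially encoded to nuclear UMIs was therefore highest in B cells, at 3.04 and 2.59, against 1.77 and 1.45 in T cells, 1.80 and 1.68 in macrophages, 1.44 and 1.27 in neutrophils and 1.21 and 1.05 in endothelial cells.

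NK cells lay near T cells, with 1 exception. Ndufa4, a complex IV subunit first assigned to complex I, had 129 and 113 CPM in NK cells. It had 415 and 441 CPM in T cells and 450 and 437 CPM in B cells. T cells exceeded NK cells 3.22-fold and 3.90-fold, and Ndufa4 was the only member at least 2-fold lower in NK cells than in T cells in both libraries, where 1.06% of all genes were. No member was 2-fold higher there, where 1.78% of all genes were. Neutrophils, at 132 and 128 CPM, were the other gate with such a low level by CPM, and endothelial cells had 656 and 576 CPM. After TMM scaling Ndufa4 in neutrophils over macrophages was at -0.15 and -0.16 on the log2 scale. The TMM shift of NK cells against T cells was small, at -0.06 and -0.008. The summed members of NK cells were lower than those of T cells by 0.24 and 0.19 on the log2 scale.

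Monocytes and dendritic cells differed from macrophages by no member at the 2-fold threshold in both libraries. The background of genes at least 2-fold higher and lower was 1.68% and 2.57% for monocytes and 2.29% and 3.51% for dendritic cells. Summed members differed by -0.09 and -0.10 in monocytes and by 0.04 and 0.06 in dendritic cells on the log2 scale. Members with the smallest spread over gates were Ndufs7, Ndufa3 and the assembly factor Sdhaf2. Ndufs7, a core subunit of complex I, had 166 and 142 CPM in neutrophils, 192 and 181 CPM in macrophages, 144 and 131 CPM in T cells and 124 and 136 CPM in B cells.

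**Figure D3:**
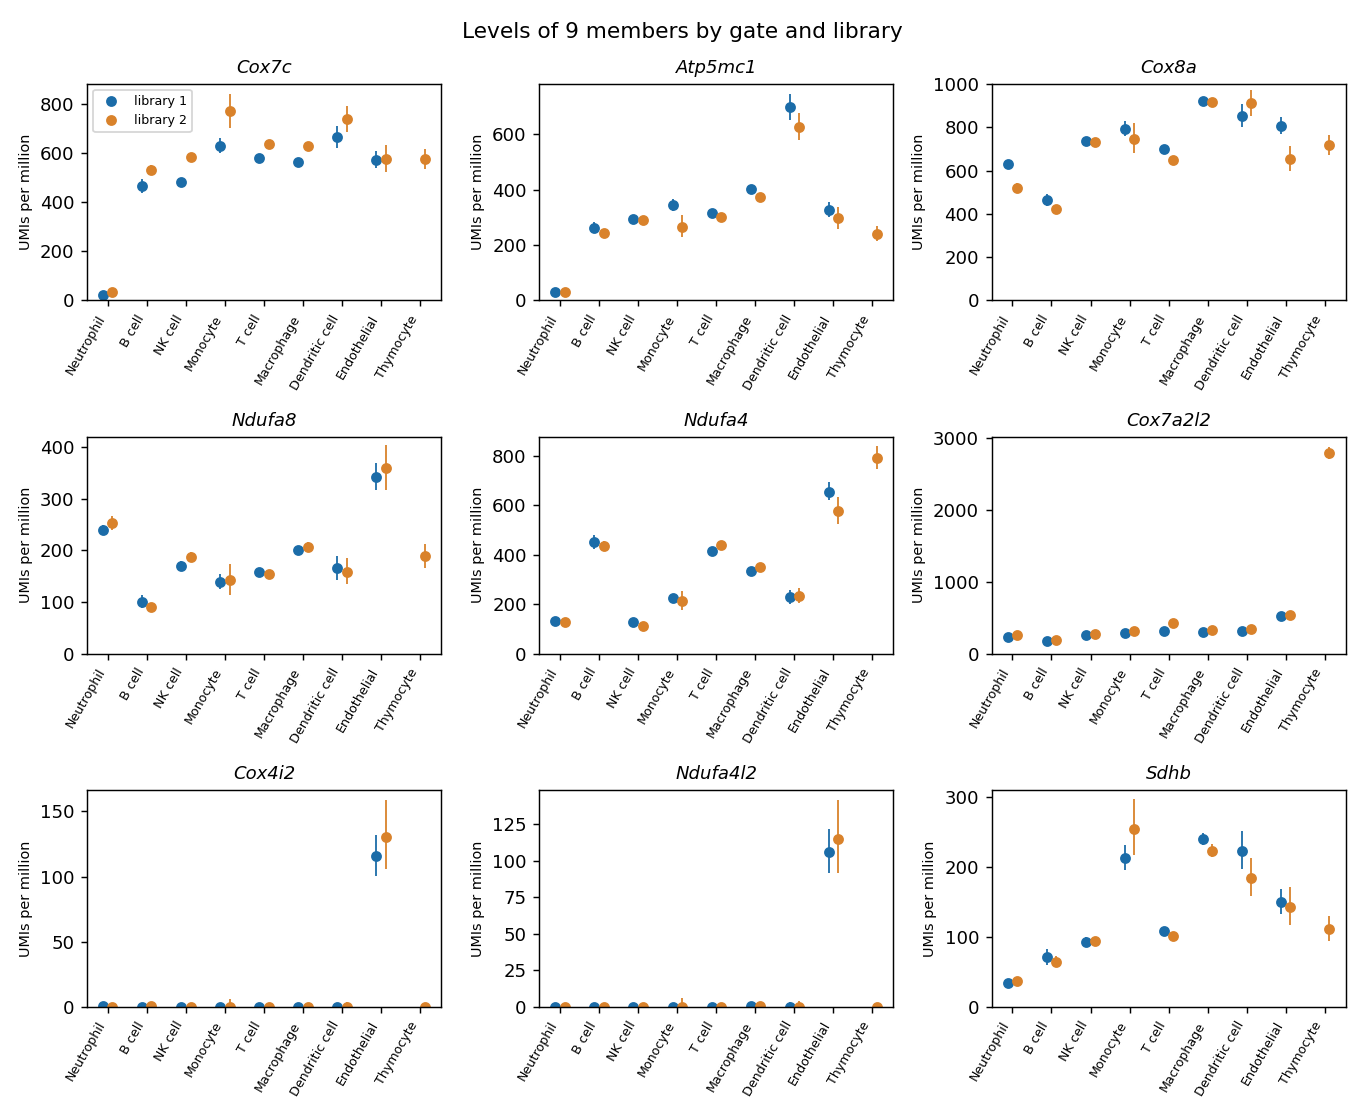
CPM (vertical axes, each from 0) of 9 members in each gate (horizontal axes), with library 1 in blue, library 2 in orange and bars for exact 95% Poisson intervals. Cox7c and Atp5mc1 are near 0 in neutrophils only, Ndufa4 is lowest in neutrophils and NK cells, Cox7a2l2 reaches 2792 CPM in the thymocyte gate, and Cox4i2 and Ndufa4l2 are seen in the endothelial gate.

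In the thymocyte gate of library 2, 1 member stood apart. Cox7a2l2, named as a relative of the complex IV subunit Cox7a2, had 2792 CPM (95% interval 2705 to 2881) there. It had 421 CPM in T cells of the same library, a ratio of 6.63. It lay between 180 and 538 CPM in the 8 other gates of both libraries. At least 1 UMI was seen in 412 of 419 cells (98.3%) and at most 60 in a cell. Cox7a2l2 was the only member at least 2-fold higher in thymocytes than in T cells, where 5.31% of all genes were, and 0 members were lower, where 2.78% of all genes were. Without it, the summed members were 21064 CPM in thymocytes and 19874 CPM in T cells of library 2. No row with the symbol Cox7a2 was analysed here. Reads of near-identical copies in this gene family could have been assigned to either copy or dropped. Which gene or copy the level comes from was not tested.

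Part of the T cell gate behaved likewise. In library 2, 319 T cells carried a UMI of Rag1 or Dntt, genes of receptor rearrangement, and Cox7a2l2 stood at 1707 CPM in them and at 333 CPM in the other 3291. Library 1 had 2 such T cells, and its other 2161 T cells had 315 CPM. The difference between libraries in T cell Cox7a2l2, 0.40 on the log2 scale, was thus found with those cells included.

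The endothelial gate carried 2 isoforms that were nearly absent from the leukocyte gates. Cox4i2, the alternative form of Cox4i1 known from lung and oxygen sensing, was measured at 116 and 130 CPM, with intervals of 101 to 132 and 106 to 159. Ndufa4l2, a hypoxia-inducible relative of Ndufa4, was measured at 106 and 114 CPM, with intervals of 91.3 to 121 and 91.7 to 141. In macrophages Cox4i2 had 1 UMI in library 1 and 0 in library 2, and Ndufa4l2 3 UMIs in each. Both genes marked a minority of the gate: Cox4i2 was seen in 26 of 147 and 10 of 53 cells, Ndufa4l2 in 22 and 12, and both together in 16 and 8. The highest cell held 35 and 25 UMIs of Cox4i2. At 1500 UMIs a cell the shares with Cox4i2 were 8.15% and 3.92%, and macrophages, at median depths of 7036 and 6592.5 UMIs beside 8988 and 9872 in the endothelial gate, were at 0 of 1600 and 0 of 1476 thinned cells, which allows up to 0.188% and 0.203% of cells with a UMI. Both genes are also known as pericyte genes, and no pericyte list was among the lists used here.

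Cox6a2 and Cox8b are the forms of heart and skeletal muscle. In the endothelial gate Cox6a2 had 20.4 and 53.9 CPM and Cox8b 8.04 and 19.7 CPM, while the list of 10 cardiomyocyte genes stood at 321 and 687 CPM and the red blood cell list at 1536 and 7616 CPM. Of the cardiomyocyte UMIs in that gate 61.9% and 85.8% lay in the 30 and 25 cells with a UMI of either gene. Those cells were also deeper, with medians of 17244 and 15785 UMIs against 7600 and 6690.5 in the others, and held 33.2% and 59.8% of all UMIs of the gate. In the leukocyte gates Cox6a2 was at most 5.06 CPM and Cox8b at most 2.06 CPM. The part of heart muscle RNA in these values was not tested. Cox4i2, Ndufa4l2 and Cox6a2 were the 3 members at least 2-fold higher in the endothelial gate than in macrophages in both libraries, where 8.89% of all genes were, and 0 were lower, where 5.13% were. Cox6b2, the testis form, reached 10.1 CPM in the thymocyte gate and at most 5.37 CPM elsewhere.

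Between the libraries the members moved little within a gate. At a threshold of 1.5-fold on (CPM + 10), 0 members were called in neutrophils, macrophages, T cells, B cells and NK cells. The shares of all genes higher and lower in library 2 were 1.72% and 1.45% in neutrophils, 1.48% and 0.574% in macrophages, 0.589% and 0.566% in T cells, 0.43% and 0.664% in B cells, and 0.8% and 0.785% in NK cells. In monocytes Ndufa5 (122 and 205 CPM) and Ndufaf7 (24.3 and 51.6 CPM) were higher in library 2, where 5.22% of all genes were, and 0 were lower, where 2.86% were. In dendritic cells Ndufaf4 rested on 8 and 24 UMIs and was higher in library 2, where 4.18% of all genes were, and 0 were lower, where 2.48% were. In the endothelial gate Cox6a2, Cox8b and Sdhaf4 were higher in library 2, where 3.01% of all genes were, and Ndufaf1 was lower, with 14 UMIs and 0, where 4.6% of all genes were. These gates had the fewest cells, and Sdhaf4 rested on 6 and 11 UMIs.

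Small shifts were shared by several gates. Among the 60 members with at least 20 CPM in every gate, 6 were higher in library 2 in all 8 gates (10%) and 3 lower (5%). Over all 2304 genes at that level the shares were 5.16% and 4.86%, so the members' shares were near or somewhat above the background. The 6 were Atp5mf, Cox7a2l2, Cox7c, Ndufa3, Ndufa5 and Ndufb4, and the 3 were Ndufb5, Ndufb8 and Ndufb9. Ndufb8 in macrophages was 461 CPM in library 1 and 363 CPM in library 2, and in T cells 376 and 299 CPM. Ndufa3 in NK cells was 54.5 and 73.2 CPM, and in macrophages 74.9 and 92.3 CPM. Summed by complex, library 2 over library 1 lay between -0.13 and 0.06 on the log2 scale for complex I, between -0.17 and 0.15 for complex II, between -0.09 and 0.08 for complex III, between -0.11 and 0.09 for complex IV and between -0.11 and 0.07 for complex V. The auxiliary genes lay between -0.01 and 0.27, which includes the largest ratio of these groups, and were higher in library 2 in 7 of 8 gates. Their ratio was 0.27 in NK cells (counting interval 0.20 to 0.33) and 0.20 in neutrophils (0.090 to 0.32). Most of this sum was 1 gene, the inhibitor Atp5if1. It held 249 and 309 of the 459 and 553 auxiliary CPM in NK cells, and 92.7 and 107 of 167 and 192 CPM in neutrophils. The mitochondrially encoded subunits were lower in library 2 in 8 of 8 gates, by between 0.06 and 0.31 on the log2 scale. Barcode quality, depth and the treatment cannot be told apart in that shift, since each library is a single sample.

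**Figure D4:**
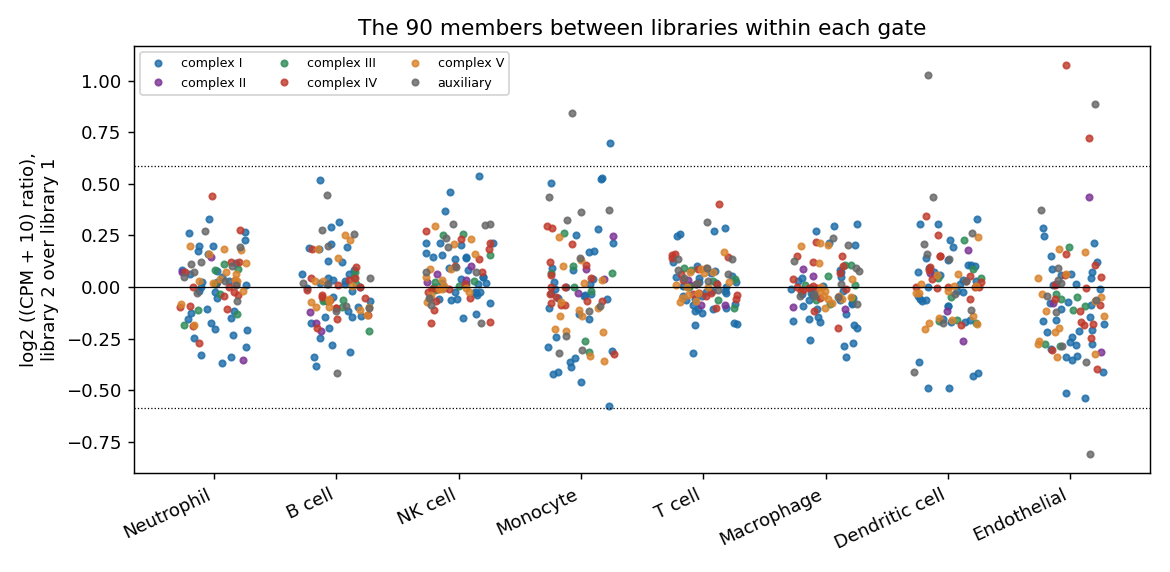
Log2 ratio of (CPM + 10) in library 2 over library 1 (vertical axis) for the 90 members in each of the 8 gates (horizontal axis), coloured by complex, with dotted lines at 1.5-fold. The points beyond the lines lie in the monocyte, dendritic and endothelial gates, the 3 gates with the fewest cells.

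Dividing cells carried more of the nuclear-encoded chain than other cells of the same gate. Dividing cells were those with at least 3 of 10 division markers on, and cells with none were the comparison. In macrophages the summed members were 26833 CPM (74 dividing cells) against 20101 CPM in library 1, and 25023 CPM (100 cells) against 19860 CPM in library 2. In T cells they were 25001 CPM (111 cells) against 19177 CPM, and 25691 CPM (301 cells) against 18800 CPM. In NK cells of library 2 they were 22392 CPM (76 cells) against 17309 CPM. The dividing cells were higher in each of these 5 comparisons, by 0.42 and 0.33 on the log2 scale in macrophages, 0.38 and 0.45 in T cells and 0.37 in NK cells.

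The difference ran through the complexes and was not shared by the mitochondrially encoded genes. Of the 90 members 78 and 80 were higher in dividing macrophages, 79 and 82 in dividing T cells and 82 in dividing NK cells, where 47.0%, 49.6%, 45.5%, 52.7% and 43.3% of all genes were higher. Those shares are over the 13249 genes tested, at any level, and genes as abundant as the members were not counted apart. Complex I was higher by 0.42 and 0.36 in macrophages and by 0.50 and 0.58 in T cells, and complex V by 0.42 and 0.33 and by 0.31 and 0.39. The auxiliary genes had the widest difference in T cells, 0.76 and 0.77. The mitochondrially encoded subunits were at -0.07 and -0.02 in macrophages, -0.15 and -0.07 in T cells and 0.08 in NK cells. Dividing cells were also deeper, with medians of 10741 and 9412 UMIs in T cells against 4583.5 and 4626, and 7983 and 8232 in macrophages against 6993 and 6391, and the part of depth in the difference was not tested.

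**Figure D5:**
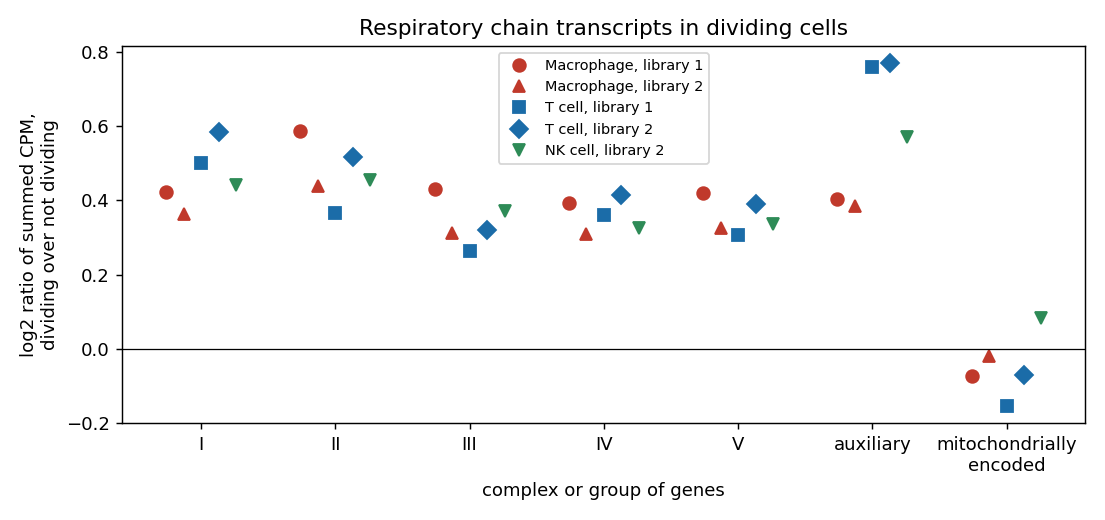
Log2 ratio of summed CPM in dividing over non-dividing cells (vertical axis) for each complex, the auxiliary genes and the mitochondrially encoded subunits (horizontal axis), with a symbol for each gate and library. All 5 symbols lie above 0 for each nuclear group, and those of the mitochondrially encoded subunits lie between -0.15 and 0.08.

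Of the other states, those of macrophages differed less. Those of neutrophils differed less in library 1 and about as much as dividing cells in library 2. Macrophages with the Spp1, Gpnmb, Fabp5 and Cd9 markers (322 and 179 cells) had 22912 and 22173 CPM of the members, and those with the resident markers Lyve1, Folr2, Cd163 and Cbr2 (576 and 337 cells) 20465 and 21087 CPM. The log2 ratio was 0.16 in library 1 and 0.07 in library 2. Neutrophils with Retnlg, Mmp8, S100a9 and Cxcr2 (1529 and 1007 cells) had 6949 and 6835 CPM, below the 7895 and 8995 CPM of those with the activation markers Cxcl3, Ptgs2, Il1b and Ccl3 (1188 and 244 cells). The log2 ratio was -0.18 and -0.40, and S100a9 is itself an abundant transcript in the first of these states, so that part of its total is set by the marker.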

How the data were processed

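Sorted CD45+ rat heart cells were profiled with a 10x Genomics 3′ v2 kit, per the labels' protocols, and the deposited matrix holds UMI counts per gene and barcode, written by Cell Ranger 4.0.0 according to the file headers. For the genome build and annotation the sources used here give none. Rows of a symbol were added up. Kept barcodes had 200 genes or more and no more than 20% of UMIs from mitochondrial genes, and doublets called by Scrublet in scanpy 1.11.5 (expected 8%) were left out, 4.07% and 6.82% of barcodes. A marker was on at 1 UMI or more and at least 20% of its 98th percentile, and a cell was gated with at least 3 markers and 1 more than any other type; these limits and those of the macrophage and neutrophil states were set after seeing how many cells they kept. A pseudocount of 10 CPM was used in log2 ratios of single genes and not in those of sums. TMM factors came from edgeR 4.0.16. With 1 sample per group and no tie of library to group, no test was made. The calling steps were tested on simulated data. The members and lists were chosen with earlier results of these data known. Members named by rule were the 4 with most UMIs per complex, the isoform pairs, the extremes between libraries in each gate and the 3 with the largest and smallest spread over gates; Ndufa8, Ndufa12, Uqcrfs1, Atp5if1, Ndufaf1, Ndufaf4, Sdhaf4 and the members of the subunit groups were chosen after their values were seen. Members on more than 1 row (Cox6b1, Uqcrb, Ndufa10l1 and Ndufv3) and others with near-identical copies are uncertain, since reads could be split between copies. A separate table of library names listed 33756 barcodes, of which 111 matched the matrix, and was not used. The NRF1 and YY1 letters searched in promoters are shortened cores, adopted after counts with longer forms had been seen. One member enters the sums and counts and is not reported here on its own.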

Additional observations from a re-analysis of the deposited data

Results flagged for a closer look

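Cells that passed no gate were outside the comparisons and held 4 tissue isoforms in more UMIs than the 3 that a count of 0 allows. Cox6a2 had 157 UMIs in these cells of library 1 and 84 in library 2, and Cox8b had 50 and 20. These were 8.72 and 4.69 CPM of Cox6a2 and 2.78 and 1.12 CPM of Cox8b, against 5.06 and 4.92 CPM and 2.06 and 1.11 CPM in macrophages, so in library 2 they were no higher than in that gate within counting error. At 1500 UMIs a cell, Cox6a2 was seen in 0.371% and 0.290% of ungated cells and in 0.875% and 1.08% of macrophages. In library 2 a single cell held 50 Cox6a2, 14 Cox8b and 540 cardiomyocyte UMIs, and in library 1 the highest cell held 24, 9 and 407. Cox4i2 had 173 and 32 UMIs and Ndufa4l2 119 and 13, with both genes in 11 cells of library 1 and 2 of library 2.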

How the results depend on the processing

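Values are log2 ratios unless named otherwise, in library 1 then library 2, and the cause of each change was not tested beyond the construction of the alternative. With TMM scaling, all members in neutrophils over macrophages were at -0.30 and -0.19, B cells over T cells in library 1 at -0.58, NK cells over T cells at -0.30 and -0.19, and thymocytes over T cells at 0.0056. The same scaling left 19 members lower and 3 higher in neutrophils, reversed Cox8a to 0.63 and 0.46, and gave 5 member values lower in library 2 over the 8 gates, against 1. With mitochondrial, ribosomal protein and haemoglobin genes taken out of the total, neutrophils over macrophages were at -1.67 and -1.66, NK over T cells at -0.29 and -0.26, thymocytes over T cells at 0.12, and dividing over other T cells at 0.27 and 0.32. With called doublets kept, neutrophils over macrophages were at -1.40 and -1.35. In library 2 B over T cells were then at -0.50, NK over T cells at -0.18, thymocytes over T cells at 0.20, dividing T cells at 0.44 and dividing macrophages at 0.30, and 2 member values were lower. The mitochondrially encoded to nuclear ratio was then 1.503 and 1.31 in neutrophils, and in library 2 2.52 in B cells and 1.47 in T cells. With barcodes limited to 500 genes or more and 10% mitochondrial UMIs or fewer that ratio was 1.39 and 1.24 in neutrophils, 2.99 and 2.55 in B cells, and 1.76 and 1.44 in T cells, and 2 member values were lower in library 2. With a gate margin of 2 markers, NK over T cells were at -0.25 and -0.20, thymocytes over T cells at 0.20, and 3 member values were lower in library 2. Without shared barcodes 2 were lower. Member values called between libraries numbered 18 higher and 14 lower with a pseudocount of 1 CPM, 0 and 0 with 50 CPM, and 0 lower among values of at least 20 CPM, against 6 and 1. With subunits only, neutrophils over macrophages were at -1.45 in both libraries. Without thinning, Cox4i2 was seen in 17.7% and 18.9% and Ndufa4l2 in 15.0% and 22.6% of endothelial gate cells, against 8.15% and 3.92%, and 5.19% and 5.88%. The other 89 values that answer a comparison stayed within their counting error or 1.5 times the count. No paired analysis was possible because each group is 1 sample with no test. Calls in the monocyte, dendritic and endothelial gates rest on 53 to 332 cells, and some on fewer than 25 UMIs.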
